A study of Homo sapiens with 9 samples.

Results

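The 39 genes described here encode the keratins, the tight junction and desmosome proteins, and the regulators, surface proteases and mucin that mark epithelial cells. They were taken by gene symbol from the 58395 genes counted in each library. Of the 39, 34 had enough reads to be tested and the other 5 are given by their read counts. The libraries come from MDA-MB-231, a triple negative breast cancer cell line known for its mesenchymal shape. Cells were reverse transfected for 96 h with nontargeting control siRNA (NC) or with 1 of 2 siRNAs labelled as targeting SKP2 (SKP2-1 and SKP2-2), with 3 libraries per group. SKP2 is the substrate-binding F-box subunit of an SCF ubiquitin ligase. The design text of the series names ZIP7 (gene symbol SLC39A7) in place of SKP2. SKP2 was 17.3 times lower with SKP2-1 and 10.4 times lower with SKP2-2 than in NC (adjusted p = 8.64e-12 and 5.35e-12), and SLC39A7 passed the threshold with neither siRNA (adjusted p = 0.936 and 0.0868). Nothing in the labels says that the 3 libraries of a group came from separate cultures, so p-values measure only the spread between these libraries.

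Keratins are the intermediate filaments of epithelial cells and assemble as pairs of an acidic and a basic chain. Tight junctions seal the space between neighbouring cells with claudins, occludin and related membrane proteins, which bind cytoplasmic scaffolds of the ZO family. Desmosomes join the keratin networks of neighbouring cells through the cadherins called desmogleins and desmocollins, which are held to the filaments by plakoglobin, plakophilins and desmoplakin. Mesenchymal breast cancer lines such as MDA-MB-231 are known to hold low levels of E-cadherin and of many of these proteins while keeping some keratins.

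The libraries held 35.5 to 49.9 M reads assigned to genes. Levels are given as CPM, read counts scaled to library size with TMM factors, and all tests are two-sided edgeR quasi-likelihood tests on the counts with Benjamini-Hochberg adjustment over 16575 genes and a threshold of 0.05. NC replicate 1 and SKP2-2 replicate 3 lay at the GC-rich end of their groups. Across 16555 genes, the deviation of each library from its group mean was correlated with GC share. The r values were 0.60, -0.28 and -0.60 in NC replicates 1 to 3 and -0.53, 0.08 and 0.48 in SKP2-2 replicates 1 to 3. They were between -0.04 and 0.08 in the SKP2-1 libraries. The SKP2-2 replicates thus formed a gradient, with replicates 1 and 3 at its ends. Genes are not independent replicates, so these values are descriptions. The 10 mesenchymal markers summed to 3689 to 3811 CPM in NC, 4411 to 4500 with SKP2-1 and 3569 to 3878 with SKP2-2. Of these 10, 4 rose and 1 fell against NC with SKP2-1, and 3 rose and 3 fell with SKP2-2. VIM, the mesenchymal filament vimentin, passed the threshold with neither siRNA. Among the 10, VIM (1105647) and FN1 (317942) held most reads over all libraries, followed by S100A4 (77262). The sums of the mesenchymal markers thus describe mainly VIM and FN1. The 6 immune markers summed to 2.90 to 3.57 CPM in NC, 5.66 to 6.38 with SKP2-1 and 4.71 to 4.99 with SKP2-2, and the 5 endothelial markers to 7.11 to 8.19, 15.7 to 17.4 and 7.94 to 9.5. Of the 3 immune markers tested, 3 rose with SKP2-1 and 2 with SKP2-2. Of the 2 endothelial markers tested, 2 rose with SKP2-1 and 1 with SKP2-2. CD68 cannot serve as a marker here, since other GENCODE 29 genes cover 85.8% of its exon bases and reads in shared exons may have been set aside as ambiguous. The part of these markers in the results below was not tested.

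Stretches upstream of 5 members whose levels differed between groups are printed here, so that the sequences stand beside the values that follow. They are RefSeq sequences on GRCh38.p14, limited to bases outside annotated exons and written 5′ to 3′ on the strand of the gene. Capitals mark the 6-letter E-box CACCTG or its reverse complement CAGGTG, which the SNAI and ZEB repressors of epithelial genes are known to bind.
MARVELD2, chr5:69414866-69415064, plus strand: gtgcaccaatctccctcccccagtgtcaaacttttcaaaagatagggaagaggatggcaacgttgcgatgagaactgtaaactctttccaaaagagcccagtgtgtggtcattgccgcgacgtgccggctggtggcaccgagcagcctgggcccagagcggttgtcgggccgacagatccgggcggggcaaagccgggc
DSG2, chr18:31497927-31498042, plus strand: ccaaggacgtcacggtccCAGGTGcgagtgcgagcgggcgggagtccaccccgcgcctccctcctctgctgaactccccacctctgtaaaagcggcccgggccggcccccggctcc
DSC2, chr18:31102523-31102671, minus strand: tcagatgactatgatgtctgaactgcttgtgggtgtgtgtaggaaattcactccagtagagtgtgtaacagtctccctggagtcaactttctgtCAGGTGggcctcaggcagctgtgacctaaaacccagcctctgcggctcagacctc
SPINT1, chr15:40843798-40844017, plus strand: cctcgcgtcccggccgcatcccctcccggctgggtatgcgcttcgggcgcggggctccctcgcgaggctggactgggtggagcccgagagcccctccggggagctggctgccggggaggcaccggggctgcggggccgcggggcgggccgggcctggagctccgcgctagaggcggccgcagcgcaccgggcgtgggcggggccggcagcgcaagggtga
MUC1, chr1:155192917-155193165, minus strand: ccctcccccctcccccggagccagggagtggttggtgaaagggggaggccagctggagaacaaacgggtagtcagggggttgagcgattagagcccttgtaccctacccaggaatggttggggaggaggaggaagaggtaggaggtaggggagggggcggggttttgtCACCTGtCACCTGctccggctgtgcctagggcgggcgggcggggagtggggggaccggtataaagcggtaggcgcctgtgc
The MUC1 stretch holds 2 matches, those of DSG2 and DSC2 hold 1 each, and those of MARVELD2 and SPINT1 hold 0. These counts cover the printed bases only. The full DSG2 window of 250 bases holds 2 matches, and another SPINT1 window, not printed, holds 1. RefSeq promoters were at hand for 20 of the 39 members, as 31 windows of 250 bases upstream of a start. Unlike the printed stretches, these windows keep bases in annotated exons, and some lie wholly within exons. CACCTG, searched on both strands, lay in 13 of the 31 windows (41.9%), beside 17.5% of all 35116 promoters. It lay in at least 1 window of 11 of the 20 genes. That count has no matching share here, since a gene can have several windows. The 2 MUC1 windows overlap and hold the same matches. Some matches lie in annotated exons, as do the 4 of a CLDN7 window wholly within exons. The GC box GGGCGG, on both strands, lay in 22 windows (71.0%) beside 42.6% of all promoters. The palindrome AACCGGTT, a grainyhead-type motif, lay in none of the 31 windows and in 0.117% of all promoters. Windows of 1 gene can overlap, and a match is a description of the letters only.

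With SKP2-1, 12 members rose and 10 fell against NC. Over all tested genes, 25.0% were higher and 20.5% lower in that comparison, 45.5% in either direction. With SKP2-2, 10 members rose and 10 fell, beside 25.2% of all genes higher, 24.1% lower and 49.4% in either direction. Between the siRNAs, 9 members were higher with SKP2-2 than with SKP2-1 and 9 were lower, beside 25.2%, 25.3% and 50.5% of all genes. The share of tested members past the threshold was 64.7%, 58.8% and 52.9% in the 3 comparisons. The median log2 fold change of the tested members was 0.19 with SKP2-1 and 0.17 with SKP2-2, beside 0.02 and 0.03 over all genes. The members were chosen with earlier results of these data known, so these shares and medians are descriptions only. The comparisons with NC share the NC libraries. The keratin, tight junction and desmosome genes each moved in both directions with each siRNA. Of the 3 tested epithelial regulators, 2 rose with SKP2-1 and 1 rose with SKP2-2. ELF3, which rose with SKP2-1, was at log2 -0.15 with SKP2-2, not past the threshold. In bulk RNA of this kind, fewer cells expressing a gene and less of its RNA per cell cannot be told apart.

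**Figure D1:**
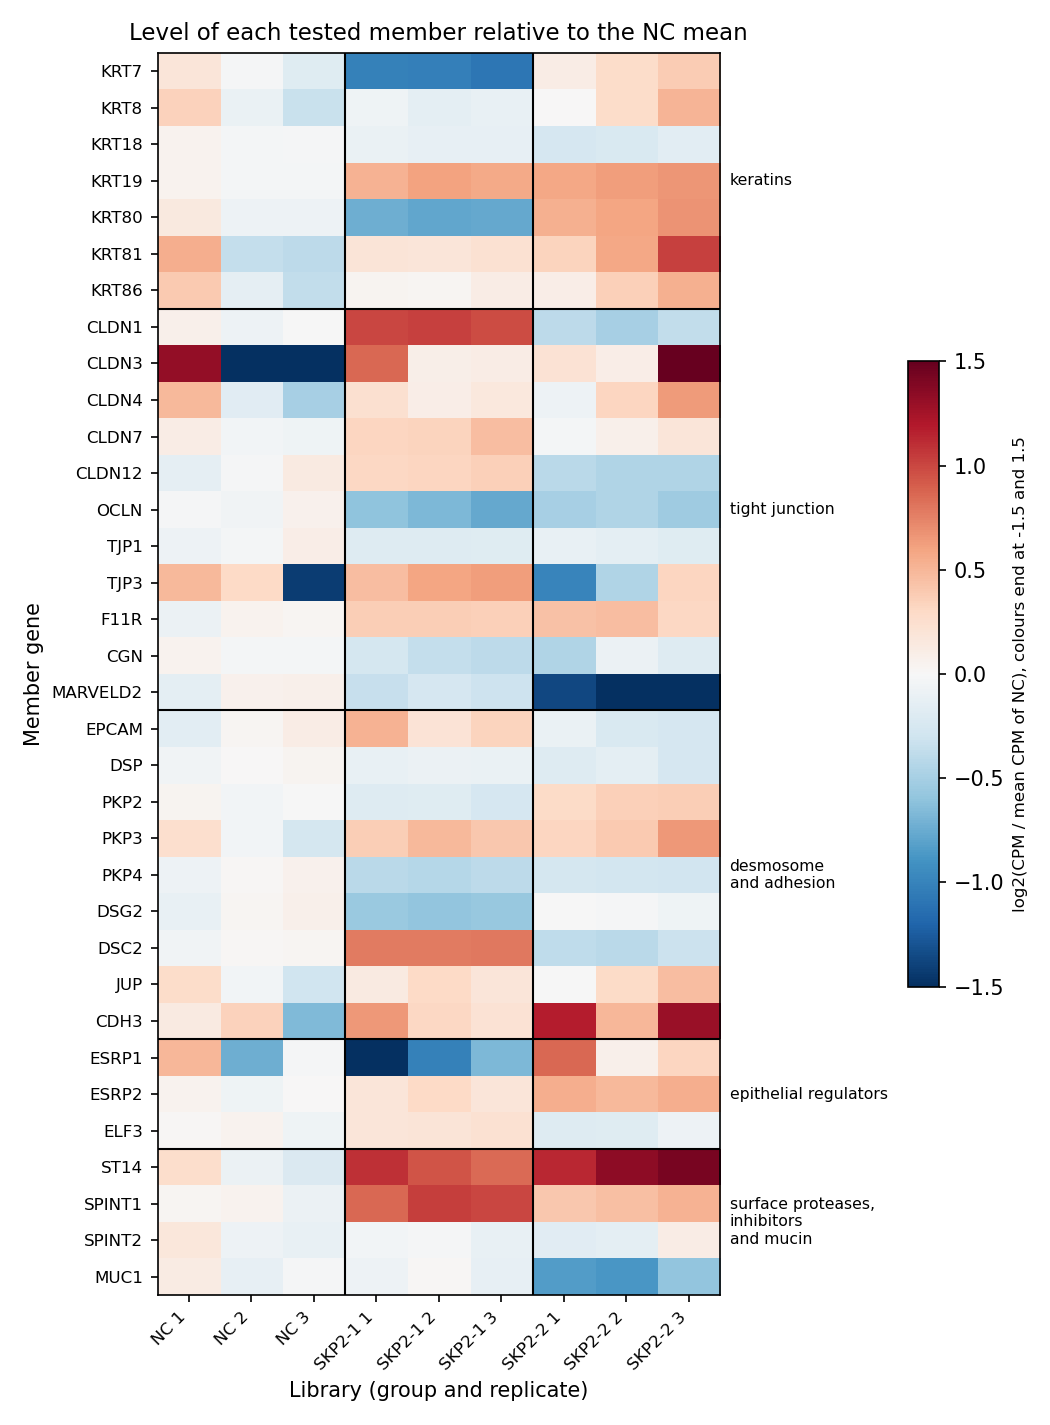
Level of each of the 34 tested members in each of the 9 libraries, as the log2 ratio of its CPM to the mean CPM of NC, with members in rows by role and libraries in columns. Rows such as KRT7, KRT80, CLDN1 and DSC2 take opposite colours with SKP2-1 and SKP2-2, and rows such as CLDN3, CLDN4 and KRT81 are highest within their groups in NC replicate 1 and SKP2-2 replicate 3.

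**Figure D2:**
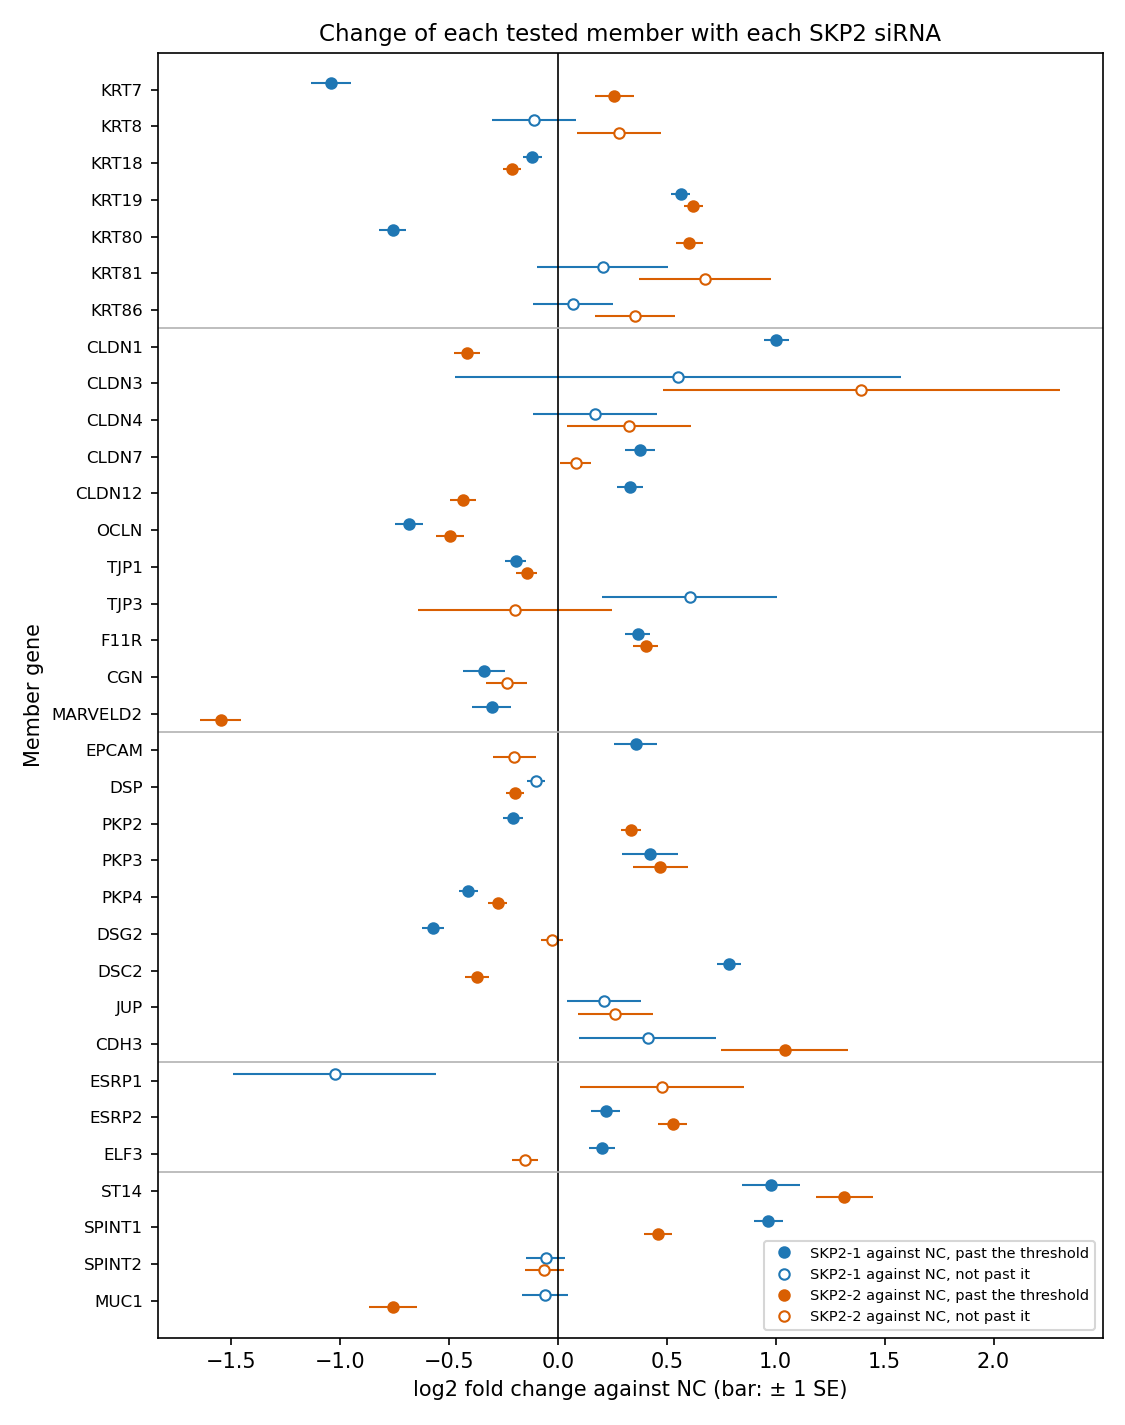
Log2 fold change against NC of each tested member with SKP2-1 (blue) and SKP2-2 (orange), with bars of 1 SE and filled points past the adjusted threshold of 0.05. KRT7 and KRT80 lie to the left with SKP2-1 and to the right with SKP2-2, and CLDN1, CLDN12 and DSC2 lie the other way round.

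Among the 7 keratins, 1 rose and 3 fell with SKP2-1, and 3 rose and 1 fell with SKP2-2. KRT7 is a basic keratin of simple and glandular epithelia, on chromosome 12 at 52232520 to 52252186 (GRCh38). KRT7 stood at 354, 309 and 277 CPM in NC, 155, 154 and 148 with SKP2-1 and 339, 379 and 407 with SKP2-2. All 3 SKP2-1 libraries were below every other library, while the NC and SKP2-2 ranges overlapped. KRT7 was 2.06 times lower with SKP2-1 than in NC (log2 -1.04 ± 0.092 SE, adjusted p = 8.72e-06) and 2.46 times higher with SKP2-2 than with SKP2-1 (adjusted p = 1.43e-06). Its difference between SKP2-2 and NC was small, at log2 0.26 ± 0.090 (adjusted p = 0.0372). That call was lost without NC replicate 2 (0.25) or 3 (0.18), without SKP2-1 replicate 1 (0.26), 2 (0.26) or 3 (0.26), and without SKP2-2 replicate 1 (0.28), 2 (0.25) or 3 (0.20), and the difference was 0.025 with offsets for GC share. It was also lost with RLE scaling (0.23), the filter at 1 CPM (0.22) and the 6 libraries compared (0.23).

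KRT80, a basic keratin whose gene lies 40.5 kb from KRT7, followed the same order of groups. KRT80 stood at 301, 257 and 257 CPM in NC, 163, 159 and 160.0 with SKP2-1 and 395, 409 and 435 with SKP2-2. The 3 groups did not overlap: SKP2-1 was lowest and SKP2-2 highest. The log2 fold change of KRT80 against NC was -0.76 ± 0.062 (SE) with SKP2-1 and 0.60 ± 0.061 with SKP2-2 (adjusted p = 4.34e-07 and 2.87e-06), and the siRNAs differed by 1.36 (adjusted p = 1.54e-09).

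KRT19, the small acidic keratin of simple epithelia, rose with both siRNAs. KRT19 stood at 197, 186 and 186 CPM in NC, 272, 289 and 281 with SKP2-1 and 284, 294 and 299 with SKP2-2. Every NC library was below every siRNA library, and the siRNA groups overlapped. Its fold was 1.48 with SKP2-1 and 1.54 with SKP2-2 (adjusted p = 2.95e-07 and 1.04e-07). With GC offsets the log2 value of KRT19 with SKP2-2 was 0.41 in place of 0.62 (adjusted p = 0.0182). KRT18, the acidic partner of KRT8, fell slightly with both siRNAs. KRT18 stood at 291, 276 and 276 CPM in NC, 262, 257 and 258 with SKP2-1 and 236, 240.3 and 253 with SKP2-2, so that no group overlapped another. The log2 fold change of KRT18 was -0.12 ± 0.043 with SKP2-1 (adjusted p = 0.04) and -0.21 ± 0.043 with SKP2-2 (adjusted p = 0.00119). The SKP2-1 call was lost without NC replicate 2 (-0.13), without SKP2-1 replicate 1 (-0.12), 2 (-0.11) or 3 (-0.11), or without SKP2-2 replicate 2 (-0.12), and with no filter on low counts (-0.11), while it was -0.19 and passed in the 6 libraries compared. Without NC replicate 1, KRT18 was also lower with SKP2-2 than with SKP2-1 (-0.089, adjusted p = 0.0345). That difference passed in 4 of 18 alternatives, among them the 6 libraries compared (-0.093) and GC offsets (-0.14).

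KRT8, KRT81 and KRT86 passed the threshold in none of the 3 comparisons. KRT8, the basic partner of KRT18, stood at 431, 319 and 270.2 CPM in NC, 325, 307 and 314 with SKP2-1 and 342, 413 and 484 with SKP2-2. KRT81, a hair-type basic keratin, stood at 178, 94.8 and 92.8 CPM in NC, 139.7, 139 and 142 with SKP2-1 and 153, 181 and 248 with SKP2-2. In both genes NC replicate 1 and SKP2-2 replicate 3 were the highest of their groups. Without those 2 libraries the log2 fold change of KRT81 was 0.57 with SKP2-1 and 0.83 with SKP2-2 (adjusted p = 4.24e-06 and 2.64e-07), and without NC replicate 1 alone it was 1.04 with SKP2-2 (adjusted p = 0.00682). With GC offsets it was 0.48 with SKP2-2 (adjusted p = 0.0268). KRT8 passed with SKP2-2 without NC replicate 1 (0.47, adjusted p = 0.041), the only 1 of 18 alternatives in which it passed that comparison. KRT86, at 5.16 to 9.64 CPM, passed without both libraries, at 0.29 with SKP2-1 and 0.48 with SKP2-2, and without NC replicate 1 alone with SKP2-2 (0.58) and between the siRNAs (0.29). KRT81 and KRT86 are near-identical copies, and KRT8 and KRT18 share 525 exon bases on opposite strands, so how reads were split between the members of each pair is uncertain.

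Per kb of exon, the NC level was 87.3 CPM for KRT18, 81.3 for KRT19, 76.5 for KRT7, 63.1 for KRT81, 62.5 for KRT80, 49.4 for KRT8 and 2.78 for KRT86. Exon length here joins all annotated exons of a gene, 6.88 kb for KRT8 and 3.22 kb for KRT18. The order may thus differ from that per expressed transcript, and mean NC CPM was higher for KRT8 (340) than for KRT18 (281). KRT86 lay far below the other keratins, though the split of its reads with KRT81 is uncertain. Of 22 other keratins, 18 had too few reads to be tested, and 10 of them, among them the basal keratins KRT5 and KRT6A, were at 0 reads in all 9 libraries. KRT15, an acidic keratin of basal cells, rose with both siRNAs (log2 0.61 ± 0.090 and 0.65 ± 0.090, adjusted p = 9.49e-05 and 5.08e-05). KRT17 rose with SKP2-1 and fell with SKP2-2 (0.79 ± 0.24 and -0.78 ± 0.29, adjusted p = 0.0181 and 0.0397). Its level was only 0.222 to 1.26 CPM, with 9 to 49 reads per library, so these values rest on few reads. KRT10 and KRT83 passed in no comparison. Of 7 genes for keratin linkers and turnover, 3 rose and 2 fell with SKP2-1, and 1 rose and 1 fell with SKP2-2. KLHL24, a ubiquitin ligase adaptor for keratin 14, rose with SKP2-1 (0.71 ± 0.049) and fell with SKP2-2 (-0.46 ± 0.049). The linker DST rose with SKP2-1 (0.30 ± 0.053), PNN fell with SKP2-1 (-0.55 ± 0.053), and the linker PLEC passed in no comparison, at 686 to 2119.6 CPM.

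**Figure D3:**
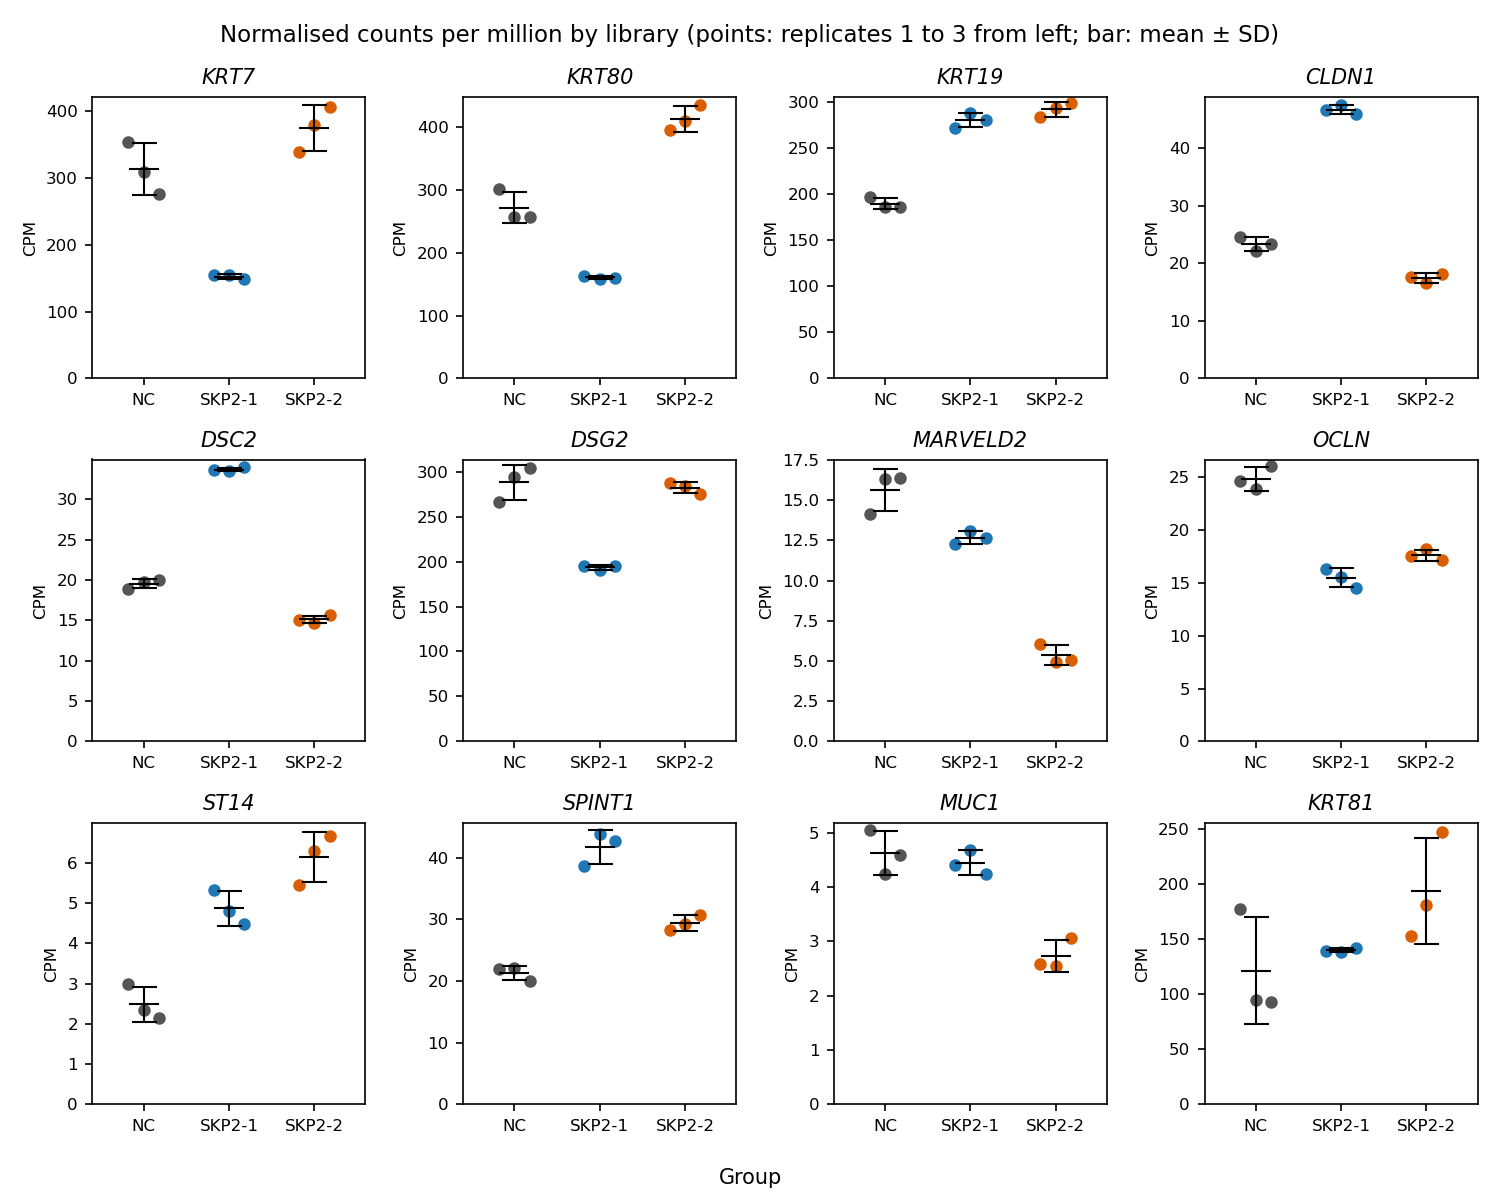
CPM of 12 members in each library, with points for replicates 1 to 3 of each group and a bar for the mean ± SD. SKP2-1 lies apart from both other groups in KRT7, DSG2 and DSC2, SKP2-2 lies apart in MARVELD2 and MUC1, and NC overlaps the siRNA groups in KRT81.

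Among the 11 tested tight junction genes, 4 rose and 4 fell with SKP2-1, and 1 rose and 5 fell with SKP2-2. CLDN1, a sealing claudin, gave the largest opposite changes. CLDN1 stood at 24.5, 22.1 and 23.3 CPM in NC, 46.7, 47.4 and 45.9 with SKP2-1 and 17.7, 16.6 and 18.1 with SKP2-2. The SKP2-1 libraries were all above NC and the SKP2-2 libraries all below it. CLDN1 rose 2.00-fold with SKP2-1 (log2 1.00 ± 0.058, adjusted p = 1.57e-08) and was 1.33 times lower with SKP2-2 (log2 -0.42 ± 0.059, adjusted p = 5.51e-05). Between the siRNAs it differed by log2 -1.42 ± 0.059 (adjusted p = 5.88e-10). CLDN12, a claudin expressed in many tissues, moved in the same directions. CLDN12 stood at 65.9, 71.7 and 79.6 CPM in NC, 89.9, 90.7 and 92.6 with SKP2-1 and 54.9, 52.8 and 53.1 with SKP2-2, and its groups did not overlap. Its log2 fold change was 0.33 ± 0.060 with SKP2-1 and -0.43 ± 0.061 with SKP2-2 (adjusted p = 0.000526 and 4.98e-05). GTPBP10 and CDK14 share exon bases with CLDN12, and other genes cover 16.3% of its exons. CLDN7 stood at 26.9, 24.2 and 23.8 CPM in NC, 31.3, 31.5 and 34.4 with SKP2-1 and 24.5, 26.4 and 28.3 with SKP2-2. Other genes cover 12.3% of the CLDN7 exon bases. CLDN7 rose with SKP2-1 only by this test (log2 0.38 ± 0.071, adjusted p = 0.000656), and was lower with SKP2-2 than with SKP2-1 (-0.30 ± 0.070, adjusted p = 0.00337).

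OCLN and MARVELD2, membrane proteins of the MARVEL family, fell with both siRNAs. MARVELD2 (tricellulin), which seals the points where 3 cells meet, stood at 14.1, 16.3 and 16.4 CPM in NC, 12.3, 13.1 and 12.6 with SKP2-1 and 6.07, 4.92 and 5.08 with SKP2-2. The SKP2-2 libraries lay far below all others. MARVELD2 was 2.92 times lower with SKP2-2 than in NC (log2 -1.55 ± 0.093, adjusted p = 2.08e-08) and fell less with SKP2-1 (-0.30 ± 0.088, adjusted p = 0.0126), the siRNAs differing by -1.24 (adjusted p = 1.56e-07). The SKP2-1 call was lost without NC replicate 2 (-0.27) or SKP2-1 replicate 1 (-0.28). OCLN (occludin), which lies 48.0 kb from MARVELD2, stood at 24.6, 23.9 and 26.1 CPM in NC, 16.3, 15.6 and 14.6 with SKP2-1 and 17.5, 18.2 and 17.2 with SKP2-2. Both siRNA groups were below NC. Its log2 fold change was -0.68 ± 0.065 with SKP2-1 and -0.50 ± 0.065 with SKP2-2 (adjusted p = 1.84e-06 and 2.8e-05). OCLN was slightly higher with SKP2-2 than with SKP2-1 (0.19, adjusted p = 0.0301), a call lost without SKP2-1 replicate 2 (0.19) or 3 (0.14) or SKP2-2 replicate 1 (0.18) or 2 (0.16), and also with DESeq2 (0.18) and with no filter on low counts (0.19). MARVELD3 had 1 read in all libraries together.

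F11R (JAM-A), an immunoglobulin-type adhesion molecule of the junction, rose with both siRNAs. F11R stood at 26.4, 29.3 and 28.7 CPM in NC, 36.5, 36.3 and 36.0 with SKP2-1 and 38.0, 38.8 and 34.9 with SKP2-2, with every NC library below every siRNA library. Its fold was 1.29 and 1.32 (adjusted p = 0.000183 and 6.98e-05). Other genes cover 36.6% of the F11R exon bases in GENCODE 29, so its level may be understated. The scaffold TJP1 (ZO-1) fell slightly, from 169, 175 and 189.6 CPM in NC to 155, 155 and 156 with SKP2-1 and 165, 161 and 157 with SKP2-2. Its log2 fold change was -0.19 ± 0.048 with SKP2-1 and -0.14 ± 0.048 with SKP2-2 (adjusted p = 0.00463 and 0.0236), and the SKP2-2 call was lost without NC replicate 3 (-0.096) or SKP2-2 replicate 2 (-0.14) or 3 (-0.13), and by library size only (-0.10). CGN (cingulin), which links the junction to actomyosin, stood at 8.66, 8.16 and 8.15 CPM in NC, 6.91, 6.49 and 6.34 with SKP2-1 and 6.07, 7.82 and 7.29 with SKP2-2. CGN fell with SKP2-1 (log2 -0.34 ± 0.095, adjusted p = 0.0107), and its value with SKP2-2 was -0.23 ± 0.095 (adjusted p = 0.0562, and 0.0262 at -0.32 without SKP2-2 replicate 2). The SKP2-2 value of CGN passed in 4 of 18 alternatives, among them RLE scaling (-0.26) and GC offsets (-0.33).

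CLDN4, CLDN3 and TJP3 passed in no comparison. CLDN4 ranged from 48.2 to 95.1 CPM in NC, 72.8 to 80.2 with SKP2-1 and 64.5 to 105 with SKP2-2, highest in NC replicate 1 and SKP2-2 replicate 3. CLDN3 and TJP3 stayed below 1 CPM in every library. Without NC replicate 1 the log2 difference of CLDN3 between SKP2-2 and NC was 3.12 (adjusted p = 0.017). That fit set 2 and 2 reads in NC against 8, 8 and 37 with SKP2-2, and was the only 1 of 15 alternatives that passed. Without SKP2-2 replicate 3 TJP3 was lower with SKP2-2 than with SKP2-1 (-1.24, adjusted p = 0.0456), as it was with GC offsets (-1.07). Of 27 other tight junction genes, 17 were tested: 4 rose and 2 fell with SKP2-1, and 2 rose and 6 fell with SKP2-2. The scaffold MAGI1 rose with both siRNAs (0.31 ± 0.050 and 0.57 ± 0.050). The polarity protein PARD3 fell with SKP2-2 (-0.39 ± 0.043, adjusted p = 6.02e-06), as did the scaffold MPDZ (-0.16 ± 0.055, adjusted p = 0.0264), and TJAP1 passed in no comparison.

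Among the 9 tested desmosome and adhesion genes, 3 rose and 3 fell with each siRNA. The cadherins of the desmosome moved apart. DSC2 (desmocollin 2) stood at 18.9, 19.8 and 20.0 CPM in NC, 33.6, 33.5 and 34 with SKP2-1 and 15, 14.7 and 15.6 with SKP2-2. The SKP2-1 libraries were all above NC and the SKP2-2 libraries all below. DSC2 rose 1.72-fold with SKP2-1 and was 1.29 times lower with SKP2-2 (adjusted p = 8.61e-08 and 8.46e-05), and the siRNAs differed by log2 -1.16 ± 0.055 (adjusted p = 2.07e-09). DSG2 (desmoglein 2), 395.5 kb from DSC2 in the same cadherin cluster, stood at 266, 294 and 304 CPM in NC, 195, 190.4 and 195 with SKP2-1 and 288, 284 and 275 with SKP2-2. The SKP2-1 libraries were below all others, and NC and SKP2-2 overlapped. DSG2 was 1.49 times lower with SKP2-1 (log2 -0.57 ± 0.051, adjusted p = 9.3e-07) and differed from NC by -0.029 ± 0.051 with SKP2-2 (adjusted p = 0.672). With SKP2-1 the 2 expressed desmosomal cadherins thus changed in opposite directions. DSC3 had 2 reads in all libraries together.

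Plakophilins tie desmosomal cadherins to desmoplakin. PKP2 stood at 66.4, 62.5 and 64.2 CPM in NC, 56.5, 56.8 and 54.1 with SKP2-1 and 78.5, 82.8 and 82.9 with SKP2-2, with no overlap between groups. PKP2 fell with SKP2-1 (log2 -0.21 ± 0.046, adjusted p = 0.00237) and rose with SKP2-2 (0.34 ± 0.046, adjusted p = 3.96e-05), a difference between the siRNAs of 0.54 (adjusted p = 4.8e-07). PKP4 (p0071), a relative found at several kinds of junction, fell with both. PKP4 stood at 156, 167 and 173 CPM in NC, 125, 123 and 126 with SKP2-1 and 138, 137 and 135 with SKP2-2, at log2 -0.41 ± 0.044 and -0.28 ± 0.044 (adjusted p = 5.7e-06 and 0.00016). Its small difference between the siRNAs (0.13, adjusted p = 0.0226) was lost without SKP2-1 replicate 1 (0.13), 2 (0.12) or 3 (0.14) or SKP2-2 replicate 2 (0.13). PKP3 rose with both, from 15.7, 12.8 and 10.9 CPM in NC to 17.1, 18.4 and 17.4 with SKP2-1 and 16.5, 17.3 and 20.7 with SKP2-2. Its log2 fold change was 0.42 ± 0.13 and 0.47 ± 0.13 (adjusted p = 0.0194 and 0.0105). The SKP2-1 call of PKP3 was lost without NC replicate 2 (0.41), SKP2-1 replicate 2 (0.39) or SKP2-2 replicate 1 (0.38), and in the 6 libraries compared (0.35), and the SKP2-2 value was 0.14 with GC offsets (adjusted p = 0.348).

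DSP (desmoplakin), the linker to keratin filaments, stood at 221, 230.2 and 235 CPM in NC, 211, 216 and 214 with SKP2-1 and 199.5, 207 and 193 with SKP2-2. DSP fell with SKP2-2 (log2 -0.20 ± 0.043, adjusted p = 0.00196), and its value with SKP2-1 was -0.10 ± 0.043 (adjusted p = 0.0757). Without NC replicate 1 or SKP2-2 replicate 1 the SKP2-1 value was -0.14 in each fit and passed (adjusted p = 0.0125 and 0.01). It passed in 8 of 18 alternatives, among them DESeq2 (-0.12), the 6 libraries compared (-0.17) and GC offsets (-0.14). The siRNAs differed in DSP by -0.096 ± 0.043 (adjusted p = 0.0814), which passed without NC replicate 1 (-0.093) or 3 (-0.098). That difference also passed in the 6 libraries compared (-0.097) and with the filter at 1 CPM (-0.094). EPCAM, an epithelial adhesion molecule, stood at 7.11, 8.09 and 8.59 CPM in NC, 11.4, 9.18 and 9.97 with SKP2-1 and 7.37, 6.76 and 6.64 with SKP2-2. EPCAM rose with SKP2-1 (log2 0.36 ± 0.098, adjusted p = 0.00903), a call lost without SKP2-1 replicate 1 (0.27, adjusted p = 0.055), and was lower with SKP2-2 than with SKP2-1 (-0.56 ± 0.099, adjusted p = 0.000387). Against NC the SKP2-2 value was -0.20 ± 0.10 (adjusted p = 0.118), and it passed without NC replicate 1 (-0.28) or SKP2-2 replicate 1 (-0.29). CDH3 (P-cadherin), at 0.275 to 1.07 CPM, was 2.06 times higher with SKP2-2 than in NC (adjusted p = 0.00944), a call lost without SKP2-2 replicate 1 (0.92), and without SKP2-2 replicate 2 it was also higher than with SKP2-1 (0.84). JUP (plakoglobin) passed in no comparison, at 42.4 to 63.4 CPM in NC, 57.6 to 64.5 with SKP2-1 and 52.2 to 72.1 with SKP2-2. With GC offsets JUP was higher with SKP2-1 than in NC (0.21, adjusted p = 0.00184) and lower with SKP2-2 than with SKP2-1 (-0.14, adjusted p = 0.0168).

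Of 6 other desmosome genes 1 was tested, PERP, which rose with SKP2-1 (0.44 ± 0.051, adjusted p = 1.11e-05) and not with SKP2-2 by this test (0.050 ± 0.051, adjusted p = 0.445). Of 10 adherens junction genes, 9 were tested: 2 rose and 2 fell with SKP2-1, and 2 rose and 5 fell with SKP2-2. CDH1 (E-cadherin) stood at 10.8, 12.8 and 13.6 CPM in NC, 7.48, 8.74 and 8.23 with SKP2-1 and 3.70, 3.83 and 4.14 with SKP2-2, and fell with both (-0.61 ± 0.097 and -1.67 ± 0.10, adjusted p = 0.000185 and 2.46e-08). VCL (vinculin) and CTNNB1 (beta-catenin) fell with SKP2-2 (-1.32 ± 0.045 and -0.55 ± 0.040), with values of 0.056 and 0.067 with SKP2-1. CTNNA1 (alpha-catenin) rose with SKP2-2 (0.22 ± 0.050), and CTNND1 passed in no comparison.

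Of the 5 epithelial regulators, 3 were tested. ESRP2, an RNA-binding protein that sets epithelial splicing, rose with both siRNAs. ESRP2 stood at 11.4, 10.5 and 11 CPM in NC, 12.4, 13.5 and 12.4 with SKP2-1 and 16.0, 15.4 and 15.9 with SKP2-2, with no overlap between groups. Its log2 fold change was 0.22 ± 0.066 with SKP2-1 and 0.53 ± 0.066 with SKP2-2 (adjusted p = 0.0153 and 1.92e-05), and the SKP2-1 call was lost without NC replicate 2 (0.19) or SKP2-1 replicate 2 (0.18), with DESeq2 (0.20), in the 6 libraries compared (0.15) and with GC offsets (0.18). ESRP2 was also higher with SKP2-2 than with SKP2-1 (0.31 ± 0.065, adjusted p = 0.00156), a call lost with GC offsets (0.18). ELF3, an epithelial ETS factor, stood at 21.6, 22.0 and 20.3 CPM in NC, 24.2, 24.3 and 25.0 with SKP2-1 and 18.6, 18.8 and 20.3 with SKP2-2. Other genes cover 18.5% of the ELF3 exon bases. ELF3 rose with SKP2-1 (0.20 ± 0.059, adjusted p = 0.0134), a call lost without SKP2-1 replicate 3 (0.19) and in the 6 libraries compared (0.13), and was lower with SKP2-2 than with SKP2-1 (-0.35 ± 0.060, adjusted p = 0.000261). Its SKP2-2 value against NC was -0.15 ± 0.060 (adjusted p = 0.0525) and passed without NC replicate 3 (-0.19) or SKP2-2 replicate 3 (-0.19). It passed as lower in 6 of 18 alternatives, among them RLE scaling (-0.18) and GC offsets (-0.24). ESRP1, at 0.0708 to 0.469 CPM, was higher with SKP2-2 than with SKP2-1 (log2 1.5 ± 0.43, adjusted p = 0.0112), a call lost without SKP2-2 replicate 1 (1.25), and without NC replicate 2 it was lower with SKP2-1 than in NC (-1.29). GRHL2, a grainyhead factor of epithelial genes, had 34 reads and OVOL1 2 reads in all libraries together.

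Of 10 other epithelial regulators, 7 were tested: 5 rose and 1 fell with SKP2-1, and 3 rose and 2 fell with SKP2-2. EHF (0.50 ± 0.060 and 0.17 ± 0.060), KLF5 (0.41 ± 0.043 and 0.41 ± 0.043) and KLF4 (0.93 ± 0.071 and 0.35 ± 0.071) rose with both siRNAs, and TFAP2C rose with SKP2-1 (0.39 ± 0.058). Of 6 repressors of epithelial genes, 4 were tested. SNAI2 rose with both siRNAs (0.69 ± 0.069 and 0.92 ± 0.069, adjusted p = 2.61e-06 and 1.63e-07). SNAI1, at 0.214 to 1.49 CPM, fell with SKP2-2 (-1.63 ± 0.30, adjusted p = 0.000551). ZEB1 stood at 116, 129 and 135 CPM in NC, 131, 133 and 138 with SKP2-1 and 139, 130.5 and 129 with SKP2-2 and passed in no comparison, and ZEB2 was lower with SKP2-2 than with SKP2-1 (-0.20 ± 0.066).

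Among the surface proteases and their inhibitors, ST14 and SPINT1 rose with both siRNAs. ST14 (matriptase), a transmembrane serine protease of epithelia, stood at 2.98, 2.34 and 2.14 CPM in NC, 5.33, 4.79 and 4.48 with SKP2-1 and 5.45, 6.30 and 6.66 with SKP2-2. Every NC library was below every siRNA library. ST14 rose 1.97-fold with SKP2-1 and 2.49-fold with SKP2-2 (log2 0.98 ± 0.13 and 1.32 ± 0.13, adjusted p = 4.72e-05 and 2.43e-06). Its difference between the siRNAs (0.34, adjusted p = 0.0361) was lost without SKP2-1 replicate 2 (0.32) or 3 (0.28) or SKP2-2 replicate 2 (0.32) or 3 (0.27), with the filter at 1 CPM (0.34) or DESeq2 (0.33), and was 0.095 with GC offsets. SPINT1 (HAI-1), the Kunitz-type inhibitor of matriptase, stood at 21.9, 22.1 and 20.1 CPM in NC, 38.7, 43.8 and 42.7 with SKP2-1 and 28.2, 29.2 and 30.7 with SKP2-2. The 3 groups did not overlap, with SKP2-1 highest. SPINT1 rose 1.95-fold with SKP2-1 and 1.38-fold with SKP2-2 (adjusted p = 6.56e-08 and 5.48e-05), the siRNAs differing by log2 -0.51 ± 0.064 (adjusted p = 2.08e-05). With GC offsets the log2 value of SPINT1 with SKP2-2 was 0.28 in place of 0.46 (adjusted p = 0.00872). The protease and its inhibitor thus rose together, ST14 with the higher mean under SKP2-2 and SPINT1 under SKP2-1. SPINT2 (HAI-2), the related inhibitor, passed in no comparison, at 114 to 139 CPM in NC, 114 to 122 with SKP2-1 and 110 to 133 with SKP2-2. PRSS8 (prostasin) had 14 reads in all libraries together.

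MUC1, a transmembrane mucin of the apical surface, stood at 5.06, 4.24 and 4.59 CPM in NC, 4.41, 4.69 and 4.24 with SKP2-1 and 2.59, 2.54 and 3.06 with SKP2-2. The SKP2-2 libraries were below all others, and NC and SKP2-1 overlapped. MUC1 was 1.69 times lower with SKP2-2 than in NC (log2 -0.76 ± 0.11, adjusted p = 7.51e-05) and 1.62 times lower than with SKP2-1 (log2 -0.70 ± 0.11, adjusted p = 0.000149), and its SKP2-1 value was -0.058 ± 0.11 (adjusted p = 0.693). With GC offsets the SKP2-2 differences of MUC1 were -1.25 against NC and -1.23 against SKP2-1 (adjusted p = 0.01 and 0.0105). Of 5 other surface mucins 1 was tested, MUC4, which passed in no comparison. Of 15 other surface proteases and substrates, 6 were tested: 4 rose and 1 fell with SKP2-1, and 1 rose and 2 fell with SKP2-2. The protease PRSS23 rose with both siRNAs (0.44 ± 0.048 and 0.62 ± 0.048), and MET, the receptor of hepatocyte growth factor, fell with both (-0.77 ± 0.045 and -0.63 ± 0.045). F2RL1, a receptor cleaved by serine proteases, rose with SKP2-1 and fell with SKP2-2 (0.16 ± 0.050 and -0.19 ± 0.050), and the sodium channel subunit SCNN1A rose with SKP2-1 (0.37 ± 0.087).

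GC share moved with the spread between replicates of the members. The longest transcripts of the 34 tested members hold 38.1% to 71.2% GC. Across them, the log2 ratio of NC replicate 1 to NC replicate 3 correlated with GC share at Pearson r = 0.56 and Spearman rho = 0.70, and that of SKP2-2 replicate 3 to replicate 1 at r = 0.63 and rho = 0.77. These are descriptions across genes of the same libraries. Of the 21 members over 50% GC, 21 were higher in NC replicate 1 than in NC replicate 3 and 20 were higher in SKP2-2 replicate 3 than in replicate 1. Of the 13 members under 50% GC, 3 were higher in each. The ratios were not ordered by GC share alone: MUC1, with the highest GC share, differed 1.10-fold and 1.18-fold, CLDN4, at 57.5% GC, 1.97-fold and 1.63-fold, and CLDN1, at 41.5% GC, 1.05-fold and 1.02-fold. Without NC replicate 1 and SKP2-2 replicate 3 no call among the members was lost and 9 were gained. These 2 libraries were named by their GC-rich position in these same data. Leaving them out narrows the spread within groups, so the gained calls are no independent evidence.

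**Figure D4:**
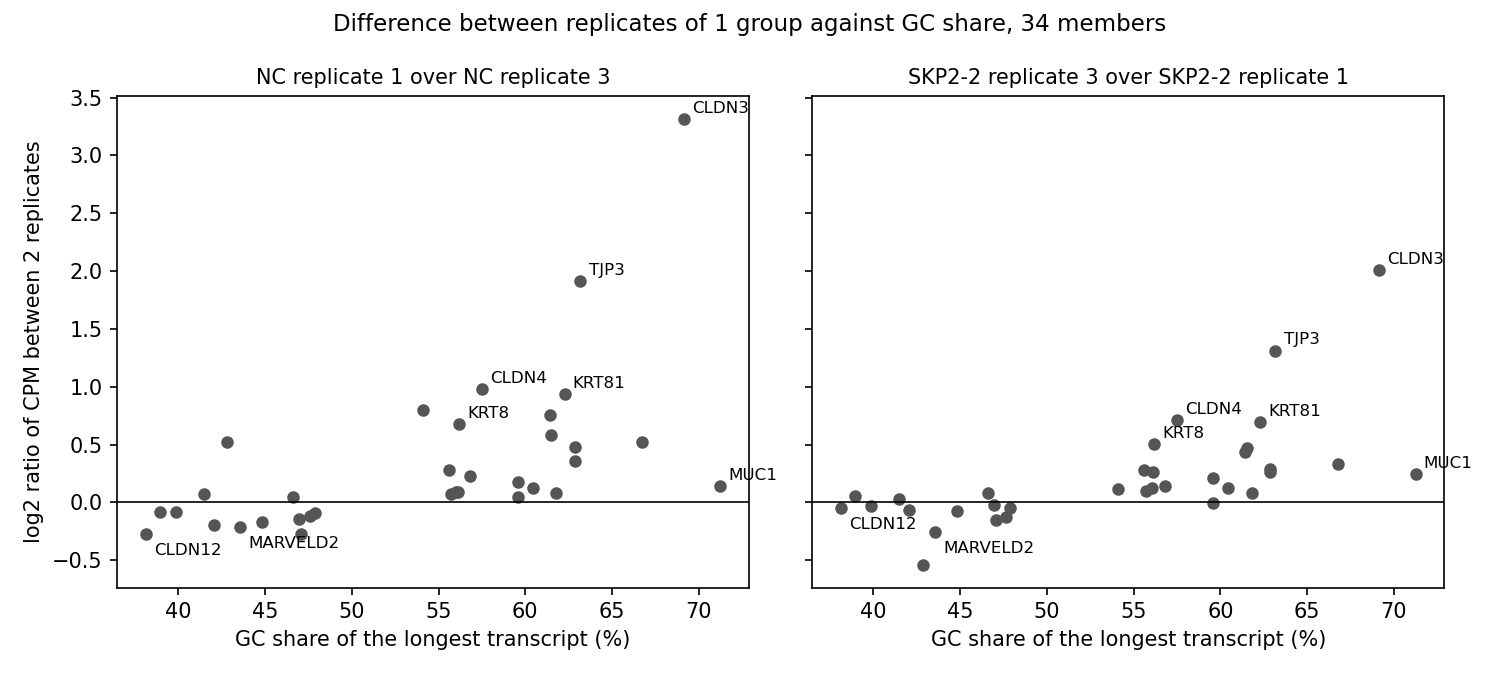
Log2 ratio of CPM between 2 libraries of the same group against the GC share (%) of each member's longest transcript, for the 34 tested members, in NC (left) and SKP2-2 (right). Of the 13 members under 50% GC, 3 lie above 0 in each panel, and of the 21 members over it, 21 lie above 0 on the left and 20 on the right.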

How the data were processed

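RNA from the 9 libraries was sequenced, and the deposited files hold raw read counts per Ensembl gene, without normalization. Per the submitters' processing notes, STAR and HTSeq 0.6.1 were used, and DESeq2 1.16.1, FastQC 0.11.2 and Trim Galore 0.4.1 are also listed, with no role or order. The genome build, annotation and strand used in counting are not given in the sources used here. Reads assigned to several genes (about 3.9% of reads) and the other summary lines were left out. Symbols came from the supplied name table (57754 of 58395 identifiers) and GENCODE 29 (521), coordinates and exon overlaps from GENCODE 29 on GRCh38.

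Counts were fitted in R 4.3.3 with edgeR 4.0.16 (TMM, filterByExpr at 10 reads per library and 15 in total, robust quasi-likelihood, group as the only term, all 9 libraries), which left 16575 genes. CPM are given per library, and log2 fold changes with their SE. The script was tested on simulated data. Alternatives were other scalings and filters, DESeq2 1.42.0, the replicate block, the 6 libraries compared, each library left out, and offsets for GC share, the last added after seeing the data.

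The members and lists were chosen with earlier results of these data known. Members past the threshold in at least 1 comparison with a mean of at least 2 CPM were written out in full and the others by range. Of each related list, counts are given with values for at most 4 genes by mean CPM, plus CDH1, ZEB1, VIM, SKP2 and SLC39A7.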

Additional observations from a re-analysis of the deposited data

Results flagged for a closer look

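For 6 members the 2 siRNAs gave changes against NC in opposite directions, each past the threshold, and the difference between the siRNAs itself passed edgeR's quasi-likelihood test with Benjamini-Hochberg adjustment. As log2 of SKP2-2 over SKP2-1, it was 1.30 for KRT7 (adjusted p = 1.43e-06), 1.36 for KRT80 (1.54e-09), -1.42 for CLDN1 (5.88e-10), -0.77 for CLDN12 (2.6e-07), 0.54 for PKP2 (4.8e-07) and -1.16 for DSC2 (2.07e-09). KRT7, KRT80 and PKP2 were higher with SKP2-2, in 3 of 3 libraries each, and CLDN1, CLDN12 and DSC2 were higher with SKP2-1, in 3 of 3. For KRT7 the rise with SKP2-2 against NC was small (0.26) and was lost in 13 of 18 alternatives. SKP2 itself was lower with SKP2-1 (3.58 ± 0.307 CPM) than with SKP2-2 (5.96 ± 0.236 CPM, mean ± SD, n = 3 libraries). Whether the remaining SKP2 level has a part in these differences was not tested. The share of all tested genes that meet the same rule of opposite changes was not computed. Over all genes, 45.5%, 49.4% and 50.5% passed in the 3 single comparisons, which is a different measure. Without the share for the rule itself, the 6 members are not read as particular to this set.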

How the results depend on the processing

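Each count of members past the threshold stayed within 1.5 times its value in every alternative run. With 1 library left out, the counts of higher and lower members were 10 to 12 and 8 to 11 with SKP2-1, 8 to 14 and 10 to 11 with SKP2-2, and 6 to 10 and 9 to 11 between the siRNAs. Deviations of same-numbered libraries from their group means correlated at -0.78 to 0.13. These values cannot show whether same-numbered libraries were prepared together, since deviations in replicates 1 and 3 of NC and SKP2-2 also correlated with GC share. The fit with the replicate block gave 11 higher and 9 lower members with SKP2-1, 9 and 9 with SKP2-2, and 6 and 9 between the siRNAs. It lost 7 calls of single members, KRT18 and PKP3 with SKP2-1, KRT7 and TJP1 with SKP2-2, and OCLN, PKP4 and ST14 between the siRNAs, and gained none. Sign changes fell among values that were not past the threshold. Without both NC replicate 1 and SKP2-2 replicate 3, KRT8 (0.084) and SPINT2 (0.023) changed sign with SKP2-1, and CLDN4 (-0.014), PKP3 (-0.043) and JUP (-0.044) between the siRNAs. With GC offsets, CLDN7 (-0.078) and DSG2 (0.0100) did so with SKP2-2, and KRT19 (-0.13), PKP3 (-0.32, adjusted p = 0.0431) and JUP (-0.14, adjusted p = 0.0168) between the siRNAs. PKP3 and JUP then passed the edgeR threshold. By library size only, DSG2 was 0.015 with SKP2-2 and SPINT2 0.024 between the siRNAs, and KRT86 was -0.0067 with SKP2-1 in the 6 libraries compared. Leaving out 1 library gave, with SKP2-1, ranges of -0.25 to 0.084 for KRT8, -0.085 to 0.29 for KRT86, -0.026 to 0.48 for CLDN4 and -0.11 to 0.024 for SPINT2. With SKP2-2 it gave -0.63 to 0.077 for TJP3, -0.092 to 0.0097 for DSG2 and -0.16 to 0.018 for SPINT2. Between the siRNAs it gave -0.23 to 1.19 for CLDN3, -0.029 to 0.31 for CLDN4, -0.058 to 0.10 for PKP3, -0.059 to 0.16 for JUP and -0.10 to 0.034 for SPINT2. The causes were not tested. With 3 libraries a group, small differences and genes below 1 CPM were measured with little precision, and reads in exons shared by several genes may be missing from the counts.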
